A study of Mus musculus with 9 samples.

Results

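The genes that encode the proteins of the cytosolic ribosome were examined as 1 family in mouse kidney, with Rpl29 set beside all the others. Protein-coding genes whose symbols begin as those of ribosomal proteins (Rpl, Rps, Rplp, Rpsa), without kinases and pseudogenes, were taken when they reached a mean of at least 1 CPM (reads of a gene per 1000000 reads of the library) over the 9 libraries. This gave 83 genes out of 54532 in the count files, 48 named for the large subunit, 33 for the small subunit, and 2 (Rpl7l1 and Rps19bp1) that share the naming but are not proteins of the cytosolic ribosome. Another 3 symbols, Rpl36al, Rpl39l and Rpl10l, stayed under 1 CPM. Rpl29 was selected on its difference between Trex1-/- and WT libraries in these same counts, so its values are a description with no test, and the members were chosen by name and by mean CPM. Just inside the minimum were Rpl24 at 1.66 CPM and Rpl3l at 2.10 CPM, and just outside it Rpl36al at 0.667 CPM.

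The data came from 9 polyA RNA libraries of whole kidney, 3 in each of 3 groups, all labelled C57BL/6J. WT was untreated wild type. KO was Trex1-/- given PBS and KO_SN011 was Trex1-/- given SN-011, an antagonist of STING, each over 2 weeks, so the loss of Trex1, a DNA exonuclease whose absence activates the cGAS-STING pathway, is shared by both treated groups. In the study's methods SN-011 was given at 10 mg/kg daily from 1 month of age, the wild-type mice were bought at 4 to 8 weeks of age, and Trex1-/- mice came from Trex1+/- crosses. Genotype, source of the mice and vehicle therefore cannot be told apart in comparisons with WT. The labels number the libraries without naming animals, so p-values measure the spread between these libraries only.

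A eukaryotic ribosome joins a small subunit, which reads the mRNA, to a large subunit, which forms the peptide bond, and each holds its own set of proteins around ribosomal RNA. Most of these proteins are present once in each ribosome, and their mRNAs are known for a run of pyrimidines at the 5′ end (the 5′ terminal oligopyrimidine tract) through which mTOR and LARP1 control their translation together. Rpl29 encodes eL29, a small basic protein of the large subunit that is known to be dispensable for life in mice, and the mouse genome holds many processed pseudogenes copied from ribosomal protein mRNAs.

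Libraries held between 16118813 and 21928965 counts. Trex1 was listed at 0 in all 9 libraries, wild type included, and 100% of its annotated exon bases lie within exons of Atrip on the same strand, so Trex1 counts cannot check the labels. Atrip had a mean of 15.3 CPM in WT, 45.1 CPM in KO and 37.3 CPM in KO_SN011. All 11 kidney markers were present, with Umod, the protein made in the thick ascending limb, at 4745 CPM or more in every library. The sum of 3 leukocyte genes (Ptprc, Coro1a and Laptm5) ranged from 42.4 to 55.1 CPM in WT, from 79.4 to 91.6 in KO and from 47.1 to 74.7 in KO_SN011, and in such tissue fewer cells of a type and less RNA per cell cannot be told apart. Y-linked transcripts summed to over 10 CPM in 5 libraries (1 of WT, 3 of KO and, in KO_SN011, replicate 2) and to under 1 CPM in the others, and a term for this was 1 of the alternative fits.

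The start of the Rpl29 coding sequence is shown because how far its reads can be told from those of its copies bears on its counts. Rpl29 (ENSMUSG00000048758) lies on the plus strand at chr9:106429454-106431568 of GRCm38, with 483 coding bases, stop codon included, in 3 coding exons that span chr9:106429978-106431449. Gm8210, a processed pseudogene on chromosome 1, differs from it at 3 coding bases, C72A, C300T and T423C, with positions counted from 1 at the A of the start codon. In the first 300 coding bases (spliced from chr9:106429978-106431266) capitals mark C72A and C300T.
Rpl29: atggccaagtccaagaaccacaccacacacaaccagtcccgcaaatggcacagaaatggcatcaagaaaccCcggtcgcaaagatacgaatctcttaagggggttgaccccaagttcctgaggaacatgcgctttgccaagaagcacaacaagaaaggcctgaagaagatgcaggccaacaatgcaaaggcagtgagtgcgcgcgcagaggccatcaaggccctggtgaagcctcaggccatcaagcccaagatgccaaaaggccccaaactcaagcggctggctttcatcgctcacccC
Gm13841 on chromosome 5 carries the same 3 substitutions. Among 7 genes that align to Rpl29 without gaps at 99% identity or more, C300T was present in 7 and T423C in 6. Of all windows of 150 bases (the read length) along the Rpl29 transcript, 35.1% occur unchanged in an annotated transcript of another gene. This share ran from 0 to 98.0% over the family and was 49.5% for Rpl19 and 90.9% for Rpl10. By the number of near-identical genes, however, Rpl29 stood near the top of the family. It had 28, below Rpl21 with 59 and Rpl7a with 39.

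Rpl29 was abundant in wild-type kidney and at under 5% of that level in Trex1-/- kidney, with or without SN-011. Its normalised read count was 115, 117 and 131 CPM in the WT libraries. In KO it was 5.12, 4.96 and 4.97 CPM, and in KO_SN011 it was 5.27, 5.51 and 2.73 CPM. All 6 Trex1-/- libraries lay far below the WT libraries and the Trex1-/- groups overlapped. Means were 121 ± 8.70 CPM in WT, 5.02 ± 0.0855 in KO and 4.50 ± 1.54 in KO_SN011 (SD, n = 3), the last 2 being 4.15% and 3.73% of the WT mean. On the log2 scale the fitted differences were -4.59 (SE 0.21) for KO against WT, -0.15 (SE 0.21) for KO_SN011 against KO and -4.74 (SE 0.21) for KO_SN011 against WT. These differences rest on 2261 to 2582 reads per WT library and 46 to 95 reads per Trex1-/- library.

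Per length, Rpl29 was a mid-level member of the family in wild type and one of the lowest in Trex1-/-. TPM values, which divide counts by exon length and scale every library to the same total, placed Rpl29 at rank 43 to 48 of 83 members in the WT libraries, with a mean of 296 ± 14.5 TPM (SD, n = 3). Its neighbours in that order, Rps18 at 298 TPM and Rpl31 at 291 TPM, did not differ from it beyond the spread between libraries. In each of the 6 Trex1-/- libraries it was at rank 80. Only Rps10, Rpl24 and Rpl3l had lower TPM values there, and the counts of Rps10 and Rpl24 are uncertain because part of their exons overlaps another gene on the same strand. Rpl29 supplied 0.577% of all counts of the family in WT and 0.0260% in KO.

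**Figure D1:**
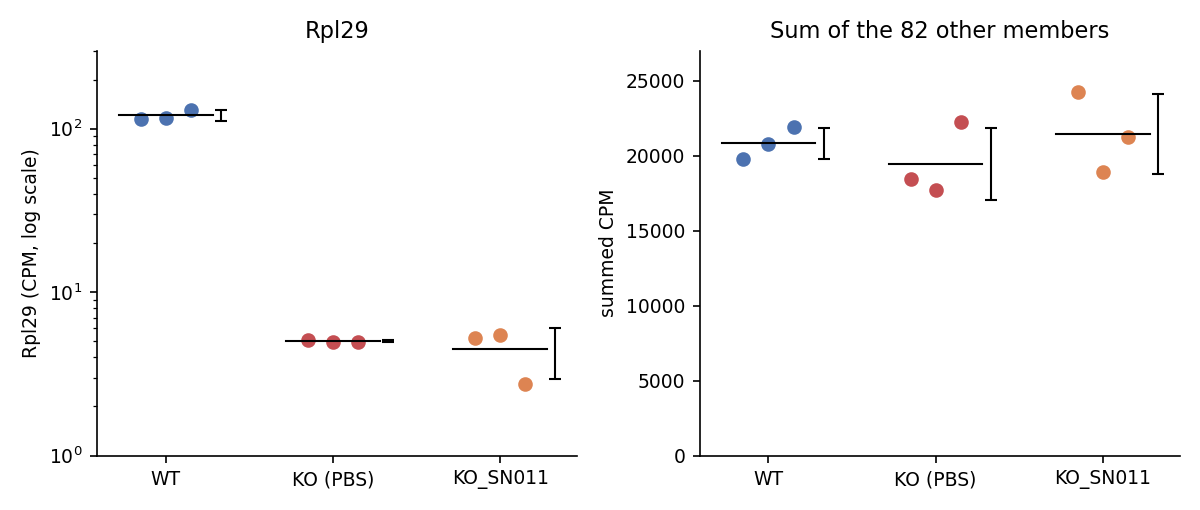
Left, Rpl29 in CPM on a log axis; right, the summed CPM of the 82 other members, for the 3 libraries of each group, with the mean (horizontal line) and SD (bar beside it). Rpl29 lies at 115 to 131 CPM in WT and at 2.73 to 5.51 CPM in the 6 Trex1-/- libraries, while the sums of the other members overlap between groups.

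The reads missing at Rpl29 were set beside those assigned to its copies. Alignment of the Rpl29 transcript to all annotated transcripts found 28 other genes with at least 400 aligned bases at 95% identity or more. Of these, 26 are annotated as pseudogenes, and the others are Gm3550 (1 read in total) and Uimc1, a DNA repair gene with 424 bases of antisense Rpl29 sequence in a transcript. The 26 pseudogenes together had 13.6 ± 2.20 CPM in WT, 18.9 ± 1.001 in KO and 17.7 ± 1.52 in KO_SN011 (SD, n = 3). Between WT and KO the mean of their sum was higher by 5.29 CPM, whereas Rpl29 differed by -116 CPM. In the study's methods, read pairs that map to several places were left out before counting. The part of such reads in the result was not tested.

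Gm8210 was higher in Trex1-/- kidney. It had 3.16, 3.57 and 3.64 CPM in WT, 8.34, 7.88 and 7.77 CPM in KO, and 5.10, 6.49 and 6.17 CPM in KO_SN011. The 3 groups did not overlap and were ordered WT, KO_SN011, KO. With edgeR's quasi-likelihood test, adjusted by Benjamini-Hochberg over all 16646 tested genes, KO against WT had a difference of 1.21 on the log2 scale (SE 0.16, adjusted p = 0.00274) and KO_SN011 against WT 0.78 (adjusted p = 0.0486), whereas KO_SN011 against KO, at -0.43, did not pass (adjusted p = 0.335). The first call held in all 19 alternative fits and the second in 7 of them. Gm13841, with the same 3 substitutions, had means of 7.61, 9.10 and 10.1 CPM in WT, KO and KO_SN011 and did not pass in any comparison (adjusted p of 0.519, 0.781 and 0.252). Rpl29-ps2 (1.31, 0.887 and 0.816 CPM) and Uimc1 (22.5, 24.7 and 24.6 CPM) did not pass either. Gm10709, a copy far from Rpl29 on chromosome 9 (chr9:7751725-7752204), had too few reads to be tested, with 9, 4 and 11 in WT, 1, 0 and 2 in KO, and 0 in each KO_SN011 library. Rpl29-ps1 and Rpl29-ps5 stayed under 1 CPM in every group.

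**Figure D2:**
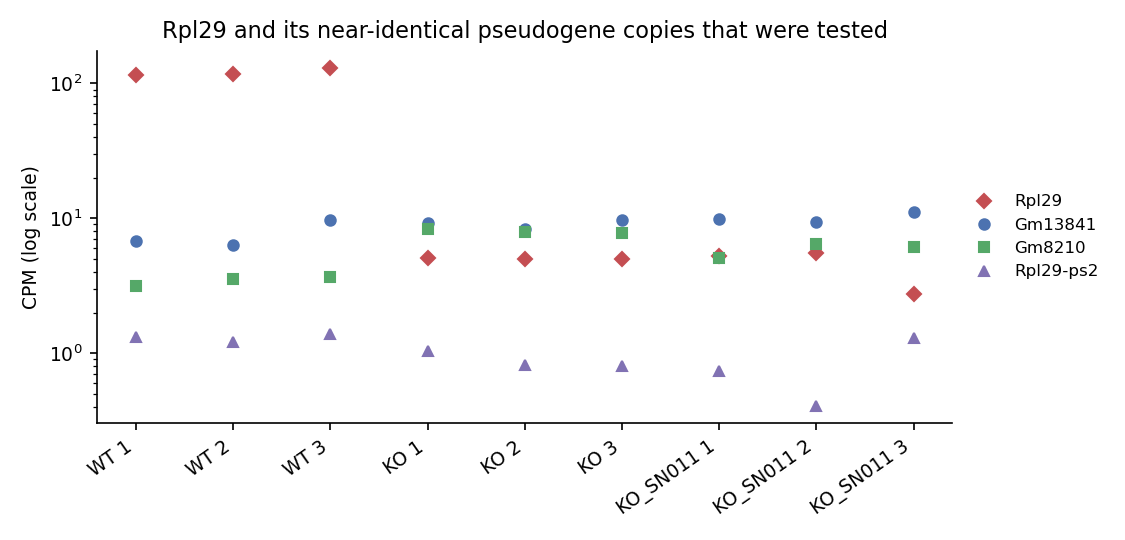
CPM on a log axis in each of the 9 libraries for Rpl29 and its 3 pseudogene copies with enough reads to be tested. Rpl29 lies below Gm13841 in every Trex1-/- library, and Gm8210 is higher there than in WT (3.16 to 3.64 CPM in WT, 5.10 to 8.34 CPM in Trex1-/-).

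Of all tested genes 1.88% were called in KO against WT, 0% in KO_SN011 against KO and 1.28% in KO_SN011 against WT. No gene next to Rpl29 was called, which for so few genes is near that background. The 4 tested genes before it, Tlr9, Alas1, Poc1a and Dusp7, and the 4 after it, Acy1, Abhd14a, Abhd14b and Pcbp4, begin within 207 kb of its start, and in KO against WT their log2 fold changes ran from -0.55 for Alas1, the first enzyme of heme synthesis, to 1.28 for Tlr9, a receptor for DNA present at only 1.20 CPM in WT (adjusted p of 0.260 and 0.171). Acy1, which begins 8.87 kb downstream, had 226 CPM in WT and 252 CPM in KO (log2 fold change 0.16, adjusted p = 0.816).

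Rpl29 lies 2.63 Mb from Trex1, the disrupted gene, on the same chromosome. Of 157 other tested genes that begin within 5 Mb of Rpl29, a window chosen after the values were seen, 8 (5.10%) passed the test in KO against WT, 5 of them lower, beside 1.88% of the genes on all other chromosomes. Mapkapk3, Cish, 6430571L13Rik and 3000002C10Rik were among the lower genes. The higher genes were Slc38a3, Uba7 and Atrip. Without KO replicate 1 or 2 the count was 3 (1.91%, beside 1.01% and 0.923% elsewhere), and without KO replicate 3 or WT replicate 1 or 2 it was 4 (2.55%, beside 1.29%, 0.948% and 0.961%). It was 15 (9.55%) without KO_SN011 replicate 2 and with only the 6 libraries compared (beside 4.66% and 4.50%), and 13 (8.28%) with DESeq2 and with every gene of at least 1 read (beside 4.36% and 2.28%). In KO_SN011 against WT 3 of the 157 (1.91%) passed, beside 1.29% on other chromosomes. Without KO_SN011 replicate 2 that count was 9 (5.73%, beside 2.23%), without KO_SN011 replicate 1 or 3 it was 5 (3.18%, beside 1.25% and 1.60%), without WT replicate 3 it was 6 (3.82%, beside 1.41%) and without WT replicate 1 it was 2 (1.27%, beside 0.216%). It was 14 (8.92%, beside 4.84%) with DESeq2, 13 (8.28%, beside 3.91%) with the Y-linked term, 11 (7.01%, beside 1.94%) with every gene of at least 1 read, 7 (4.46%, beside 1.36%) with the replicate block and 5 (3.18%, beside 1.06%) with limma-voom. In KO_SN011 against KO none passed here or among all 16646 genes (edgeR), and without KO_SN011 replicate 2 there were 5 (3.18%, beside 3.09%).

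**Figure D3:**
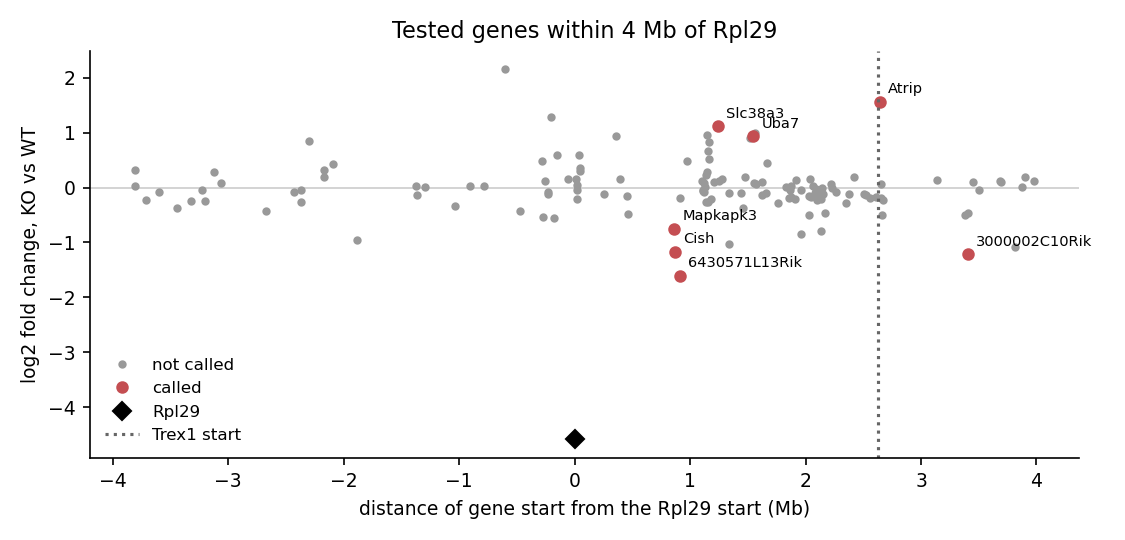
Log2 fold change in KO against WT (vertical axis) of the 137 tested genes that begin within 4 Mb of Rpl29, by distance from the Rpl29 start in Mb. Of these, 7 were called (red), and Rpl29 (black diamond) lies 2.63 Mb from the start of Trex1 (dotted line) at -4.59.

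None of the 82 other members was called in KO against WT, where 1.88% of all 16646 tested genes were called. All 83 members passed the filter on low counts. edgeR gave an unadjusted p under 0.05 for 7 of the 82, or 8.54%, beside 15.2% of all genes. DESeq2's Wald test called 1 (Rps27a, 1.22% of the 82), beside 4.37% of all genes, and limma-voom 0, beside 1.89%. The 2 groups did not overlap, with KO higher, for 4 of the 82, beside 13.1% of all genes, and with KO lower for 6, beside 12.3%. No member other than Rpl29 had a log2 fold change beyond 1 in either direction, and the 95% confidence intervals of all 82 stayed within 2, so a loss of the size seen for Rpl29 lay outside each of them.

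The family as a whole differed little between WT and KO. Fold changes of the 82 members had a median of -0.08 on the log2 scale, beside 0.0028 over all genes, and 26 of 82 lay above 0, beside 50.6% of all genes. Leaving out 1 library moved this median between -0.19 (without KO replicate 3) and -0.02 (without KO replicate 2), and the Y-linked term gave -0.04. By subunit the medians were -0.08 for 47 large-subunit genes without Rpl29 and -0.09 for 33 small-subunit genes. The summed CPM of the 82 genes was 19779.5, 20785 and 21885 in WT and 18470.4, 17697 and 22219 in KO, so the groups overlapped, with 2 KO libraries below WT and the third above it. With Rpl29 the family made up 1.99% to 2.15% of all counts in WT and 1.76% to 2.17% in KO.

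The next lowest member was Rps27a, which encodes ubiquitin fused to the small-subunit protein eS31. It had 191, 230 and 242 CPM in WT, 145, 131 and 86.5 CPM in KO, and 264, 199 and 112 CPM in KO_SN011. All 3 KO libraries were below WT, and KO_SN011 overlapped both. The log2 fold change of -0.87 (SE 0.28) in KO against WT did not pass in edgeR (adjusted p = 0.169) but did with DESeq2's Wald test, when every gene with a read was kept, and when only 6 libraries were fitted (adjusted p of 0.0259, 0.0152 and 0.0283). KO_SN011 against KO gave 0.66 (adjusted p = 0.409). After Rps27a came Rpl10, added late to the large subunit (-0.30, adjusted p = 0.219), Rpl26 (-0.25, adjusted p = 0.325) and Rpl3, a protein close to the peptidyl transferase centre (-0.25, adjusted p = 0.311). Rpl10 was at 579 to 610 CPM in WT and 456 to 530 CPM in KO.

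At the upper end in KO against WT stood Rpl3l, the muscle paralog of Rpl3, at a low level (1.71 CPM in WT and 2.77 CPM in KO, log2 fold change 0.70, adjusted p = 0.576, but -0.19 with the Y-linked term), then Rps27 (0.48, adjusted p = 0.304), Rpl39 (0.45, adjusted p = 0.210) and Rps29 (0.44, adjusted p = 0.351). Rpl39, a short protein at the exit tunnel of the large subunit, had 52.4, 60.1 and 59.0 CPM in WT, 72.2, 62.9 and 99.4 CPM in KO, and 103, 82.4 and 86.4 CPM in KO_SN011. Every Trex1-/- library exceeded every WT library. Apart from Rpl3l these genes have very short coding sequences.

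**Figure D4:**
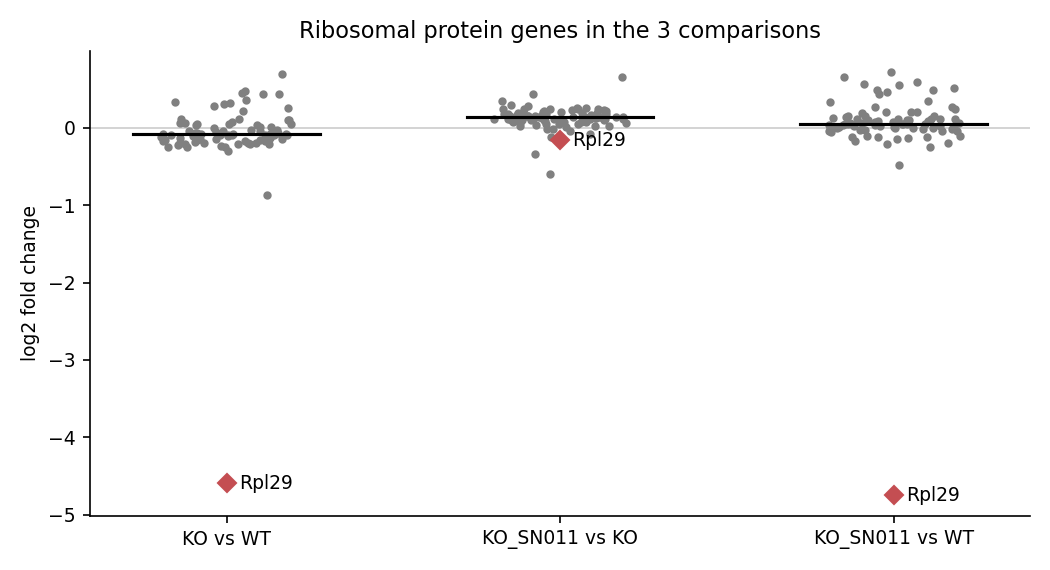
Log2 fold changes of the 82 other members (grey points) and Rpl29 (red diamond) in the 3 comparisons, with the median of the 82 as a black line. The medians are -0.08, 0.14 and 0.05, and Rpl29 lies at -4.59, -0.15 and -4.74.

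With SN-011, no member was called against KO by edgeR, and no gene of the 16646 was (0%). edgeR gave an unadjusted p under 0.05 for 1 of the 82 members, beside 11.4% of all genes. DESeq2 called 0 members and 1% of all genes, and limma-voom 0 members and 0% of all genes. Without KO_SN011 replicate 2, edgeR called 1 member, Rpl3l (1.22% of the 82), beside 3.11% of all genes. For no member did the groups fail to overlap, beside 7.74% of all genes with KO_SN011 higher and 8.41% with KO_SN011 lower. The median of the 82 fold changes was 0.14 and 75 lay above 0, beside a median of -0.0053 and 48.9% above 0 over all genes. The largest values were 0.66 for Rps27a, 0.44 for Rps27rt, 0.35 for Rpl12 and 0.29 for Rpl38, and the lowest -0.59 for Rpl3l, -0.34 for Rps10, -0.12 for Rpl27 and -0.08 for Rpl24, with adjusted p of 0.409 or more. Summed CPM of the 82 genes was 24217, 18916 and 21220.1 in KO_SN011, a range that includes all 3 WT libraries. A median of this kind moved with single libraries, from 0.05 without KO_SN011 replicate 1 to 0.25 without KO replicate 3.

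Against WT, KO_SN011 likewise had no called member, where 1.28% of all genes were called. An unadjusted p under 0.05 was found for 11 of 82 members (13.4%), beside 18% of all genes. DESeq2 called Rpl39 and Rpl38 (adjusted p of 0.00503 and 0.0434), which is 2.44% of the 82 beside 4.85% of all genes, and limma-voom 0, beside 1.08%. The groups did not overlap with KO_SN011 higher for 12 of the 82, beside 11.8% of all genes, and lower for 2 (Rpl26 and Rps10), beside 9.99%. The median fold change was 0.05, and 61 of 82 lay above 0, beside 49.5% of all genes. Without KO_SN011 replicate 1 the median was -0.03 and 36 of 82 lay above 0, and without KO_SN011 replicate 2 it was 0.14.

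The members with the shortest coding sequences stood together. This split was chosen after the values were seen and is a description. The 10 ribosomal proteins with fewer than 300 coding bases (Rpl37, Rpl37a, Rpl38, Rpl39, Rpl41, Rps21, Rps27, Rps27rt, Rps28 and Rps29) had a median log2 fold change of 0.35 in KO against WT and 0.54 in KO_SN011 against WT, and all 10 lay above 0 in each. In KO against WT the median was 0.11 without KO replicate 3, and Rps27rt lay below 0 in that fit, in the one without WT replicate 1, and when the Y-linked term was added (-0.21). In KO_SN011 against KO the medians of the short and long members were 0.20 and 0.14, with r of -0.192. For the 25 members with 600 or more coding bases the medians against WT were -0.14 and 0.03. Over 80 members Pearson's r between fold change and log2 coding length was -0.503 and -0.645 in the comparisons with WT. These comparisons share the WT libraries, and the points share libraries and depth.

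In single libraries the summed CPM of the 10 short members was 670, 758 and 747 in WT, 827, 737 and 1191 in KO, and 1214, 879.7 and 1015 in KO_SN011. Divided by the sum over the 25 long members, this gave ratios of 0.0691, 0.0750 and 0.0705 in WT, 0.0937, 0.0865 and 0.116 in KO, and 0.0983 to 0.106 in KO_SN011. The ratio was higher in all 6 Trex1-/- libraries than in WT. Rpl38, a large-subunit protein known for a part in translating Hox mRNAs, had 32.5, 35.05 and 31.4 CPM in WT, 38.0, 31.9 and 63.8 in KO and 67.4, 43.7 and 52.5 in KO_SN011, with adjusted p of 0.416 and 0.152 against WT. Highest among the Trex1-/- libraries for the short members were KO replicate 3 and KO_SN011 replicate 1. In other protein-coding genes of at least 50 CPM, 74 with fewer than 300 coding bases had medians of 0.06 and 0.06, and r with coding length was 0.038 and 0.089 over 4278 genes. How fragment length or RNA quality moved with this was not tested.

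**Figure D5:**
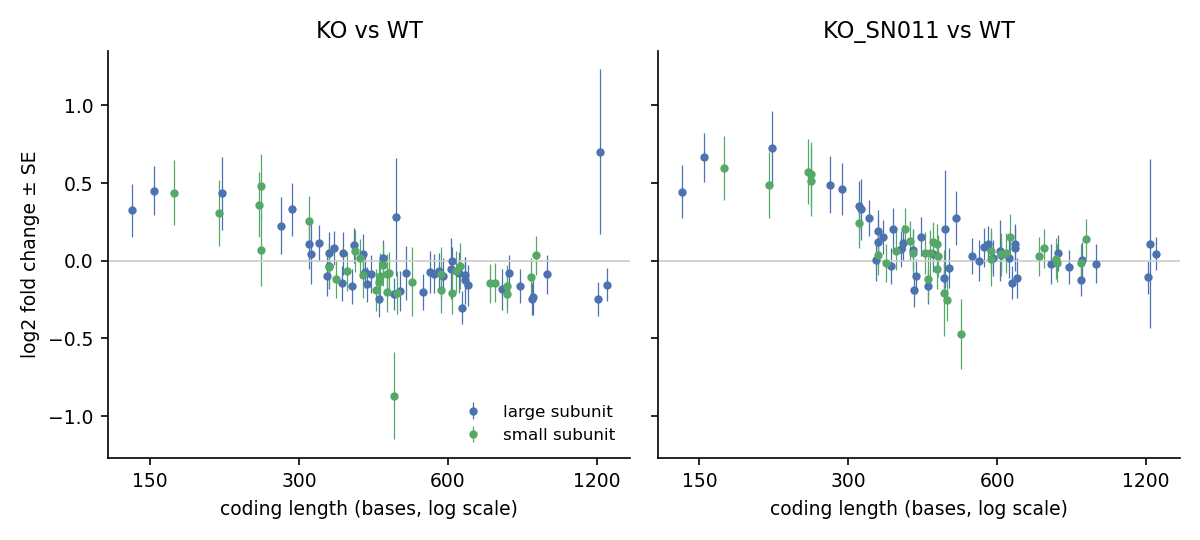
Log2 fold change ± SE against coding length in bases (log axis) of 80 ribosomal protein genes, large subunit in blue and small subunit in green, for KO against WT (left) and KO_SN011 against WT (right). All 10 genes under 300 bases lie above 0 in both panels in the fit shown, though Rps27rt lay at -0.21 in KO against WT once the Y-linked term was added, and the 25 genes of 600 bases or more have medians of -0.14 and 0.03.

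Start sites of the family were read for pyrimidine runs. In the RefSeq promoter table (GRCm38.p6) 66 of the 86 symbols were present, Rpl29 not among them. A run of at least 6 pyrimidines, any mix of C and T on the coding strand, was found within 20 bases before to 10 after the start in 40 of the 66 (60.6%) and in 33.8% of 27025 genes. Of the 10 short members 9 were in the table and 6 of them had the run. The windows of 2 short members with such a run (in capitals), of the short Rpl41 and of Rpl10, the longer gene that followed Rps27a, are shown to let them be compared.
Rpl38 (chr11:114668560-114668589, plus strand): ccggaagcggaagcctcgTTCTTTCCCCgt
Rps27 (chr3:90213639-90213668, minus strand): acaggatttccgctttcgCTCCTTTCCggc
Rpl41 (chr10:128549159-128549188, minus strand): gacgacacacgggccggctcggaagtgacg
Rpl10 (chrX:74270796-74270825, plus strand): ctatggttgttacagtggaagataggccgc
The windows of Rpl38 and Rps27 hold the run and that of Rpl41 does not. All 3 had fold changes above 0 in both comparisons with WT. The windows follow annotated starts, and that of Rpl41 lies inside the gene, whose annotated 5′ end is at 128549305. A run in a window, or its absence, therefore does not show whether the mRNA begins with the tract. How the run relates to the fold changes was not tested.

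Replicate spread was wider in the Trex1-/- groups. Over the 82 members the median coefficient of variation was 5.93% in WT, 13.8% in KO and 12.9% in KO_SN011. Most members moved together within a library. Of 80 ribosomal proteins, 14 and 7 lay above their WT mean in KO replicates 1 and 2 but 62 in KO replicate 3, and 72, 22 and 54 did in the KO_SN011 libraries. Rpl29 lay at 4.96 to 5.12 CPM in the 3 KO libraries and at 5.27, 5.51 and 2.73 CPM in the KO_SN011 libraries.

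Levels per length within the family differed widely. In WT, over the union of annotated exons, the highest were Rplp1, a stalk protein of the large subunit, at 3430.0 ± 105 TPM (SD, n = 3), Rps15 at 1541 ± 57.6 and Rps3a1 at 1303 ± 32.1. With the longest transcript as the length, Rplp1 was again highest (2765 TPM), but Rps2 (1438 TPM) and Rpl10 (1418 TPM) stood above Rps15 (1368 TPM), and Rps3a1 (1051 TPM) fell behind Rplp0 and Rpl8. Of 82 pairs of neighbours in the WT order, 65 overlapped between libraries. The lowest were Rpl3l (2.86 ± 0.704), Rpl24 (3.95 ± 1.11) and Rps10 (5.25 ± 0.646). Rpl24 and Rps10 share 47.0% and 20.6% of their exon bases on the same strand with another annotated gene, so a low count there is not shown to be a low level. Over the union of exons Rplp1 and Rps15 held ranks 1 and 2 in KO as well.

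No paralog took a called rise beside its partner, which for so few genes is near the background. Calls covered 1.88%, 0% and 1.28% of all genes in KO against WT, KO_SN011 against KO and KO_SN011 against WT. Rpl22l1, the paralog of Rpl22, was at 26.6, 24.1 and 26.0 CPM in WT, KO and KO_SN011 beside 172, 154 and 181 CPM for Rpl22. Rps27l was at 82.3, 98.2 and 97.2 CPM, and the near copy Rps27rt at 8.41, 8.80 and 12.0 CPM, beside 62.3, 86.9 and 91.7 CPM for Rps27. Rps27 and Rps27rt share most of their sequence (98.0% and 87.1% of windows), so their counts are uncertain. Rpl7 (471, 421 and 458 CPM) and Rpl7l1 (77.9, 84.1 and 83.5 CPM), Rpl36a (52.5, 54.2 and 66.0 CPM) and Rps4x (353, 316 and 357 CPM) with the pseudogene Rps4l (26.1, 25.1 and 20.7 CPM) did not pass either. Rpl10l had no read in any library, and Rpl39l had 1 read.

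By pattern over the 9 libraries, the highest Pearson r of log2 CPM with Rpl29 among the 82 other members was 0.687. Rpl29 was selected for its difference between WT and Trex1-/-, so r mostly reflects how cleanly a gene splits these libraries. A highest r over the 82 members is also not comparable with the top of a far larger set. Outside the family the closest of 16563 genes were Npdc1 (r = 0.975), the ribosomal pseudogene Rpl21-ps8 (0.959), Gm3604 (0.956), 0610005C13Rik (0.956) and Igfbp5, an IGF binding protein (0.956), none of them on chromosome 9. Their differences were smaller, on the log2 scale in KO against WT -0.29, -1.27, -0.52, -0.19 and -0.60. Among 60 tested pseudogenes named for ribosomal proteins, Rpl21-ps8 was the 1 called in KO against WT (1.67%, beside 1.88% of all genes), with 9.16 CPM in WT and 3.78 CPM in KO.

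The machinery that builds ribosomes was measured beside the family. Counts of called genes in these lists stand beside 1.88% of all genes in KO against WT, 0% in KO_SN011 against KO and 1.28% in KO_SN011 against WT, so 0 called in a list of this size is near the background. None of 47 genes for rRNA synthesis and processing was called in KO against WT (median log2 fold change 0.06). The largest value there was that of Utp20, a small-subunit processome protein, with 56.3 CPM in WT and 110 CPM in KO (0.97, adjusted p = 0.0558). Polr1a and Polr1b, the large subunits of RNA polymerase I, had log2 fold changes of 0.17 and 0.01. None of 49 large-subunit assembly factors (median 0.03) and none of 19 small-subunit factors (median 0.07) was called in any comparison. Ddx24, a helicase, had 0.30 (adjusted p = 0.0974) and Nmd3, the export adaptor of the large subunit, 0.35 (adjusted p = 0.168), and in the small-subunit list Ltv1 had 0.29 (adjusted p = 0.253) and Riok2 0.22 (adjusted p = 0.336). Nop2, Nop16 and Bysl, the lists' first genes, had 0.03, 0.21 and 0.27.

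Translation factors and other mRNAs known for the same 5′ tract were also measured. Of 26 such genes none was called, the median was -0.12 in KO against WT and 0.11 in KO_SN011 against KO, and 4 and 24 of 26 lay above 0, beside 50.6% and 48.9% of all genes. Eef1a1, the elongation factor that brings tRNA to the ribosome, had 4579 CPM in WT, 3817 in KO and 4324 in KO_SN011 (-0.26 in KO against WT, adjusted p = 0.281). Eif2s3x (-0.36, adjusted p = 0.254) and Eef1d (-0.26, adjusted p = 0.260) had the smallest p, and Eef1b2 had -0.08. Over 77 mitochondrial ribosomal protein genes, which serve the ribosome inside mitochondria, the medians were 0.03 and -0.07 and none was called. Mrps36 had 0.32 and Mrps15 -0.25 in KO against WT (adjusted p of 0.229 and 0.250), and Mrpl1 and Mrpl10 had 0.01 and -0.07.

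Among 23 tested regulators of ribosomal protein synthesis, 1 was called in KO_SN011 against WT, where 1.28% of all genes were, and 0 in the other comparisons. Myc, a transcription factor that drives ribosome production, rose by 0.92 on the log2 scale in KO_SN011 against WT (6.67, 9.66 and 12.6 CPM in WT, KO and KO_SN011, adjusted p = 0.0408), whereas KO against WT gave 0.54 (adjusted p = 0.191) and KO_SN011 against KO 0.39 (adjusted p = 0.442). The Myc call held in 10 of 19 alternative fits and in 2 of the 9 that left out 1 library. Mtor and Rptor had 0.47 and 0.06 in KO against WT (adjusted p of 0.382 and 0.830). None of 17 tested genes of ribosomal stress and p53 was called. Ccng1, a p53 target, had 171, 225 and 207 CPM (0.40 in KO against WT, adjusted p = 0.215), Ascc3, which splits collided ribosomes, had 0.31 (adjusted p = 0.284), and Trp53 and Mdm2 had 0.21 and 0.01.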

How the data were processed

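RNA from kidney was sequenced as polyA libraries with paired reads of 150 bases. The authors trimmed reads with Trimmomatic, aligned them with HISAT2 (to mm10, per the labels) and counted uniquely aligned pairs with featureCounts, versions and the strand setting of the counting not given in the sources used here. The deposited values are raw counts per gene. Ensembl IDs were matched to GENCODE vM21 (54495 of 54532). Tests used edgeR 4.0.16 quasi-likelihood fits in R 4.3.3 (TMM factors, filterByExpr with a minimum count of 10, all 9 libraries in 1 fit, 16646 genes), with Benjamini-Hochberg adjustment and calls at an adjusted p under 0.05. DESeq2 1.42.0 and limma 3.58.1 were alternatives. The fit was tested on simulated data with 200 changed genes. CPM used TMM-scaled totals, and TPM the union of annotated exons. Copies were found with BLAST+ 2.17.0. Coding length is the longest annotated coding sequence. Members and gene lists were chosen with earlier results of these data known. Genes were named by a written rule (members called or most changed, highest and lowest levels, paralogs, neighbours, closest patterns, and called or leading genes of each list). Some results on single genes are not reported here, and the plot by distance was drawn over a narrower window than the count in the text.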

Additional observations from a re-analysis of the deposited data

How the results depend on the processing

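The 0 calls among the 82 ribosomal protein genes in KO against WT became 1 (Rps27a) when every gene with at least 1 read was tested, with DESeq2's Wald test, and with only the 6 libraries of the comparison, where 2.29%, 4.37% and 4.51% of all genes were called. For KO_SN011 against KO the count became 1 (Rpl3l, log2 fold change -1.72) without KO_SN011 replicate 2, where 3.11% of all genes were called, so leaving out 1 library gave 0 to 1. For KO_SN011 against WT it became 2 (Rpl39 and Rpl38) with every gene of at least 1 read and with DESeq2's Wald test (1.96% and 4.85% of all genes), 1 (Rpl39) with the Y-linked term (3.94% of all genes), and 0 to 1 leaving out 1 library (1 without KO replicate 3). Why these calls changed was not tested. Leaving out Rps19bp1 and Rpl7l1, a choice made after seeing the data for the medians, gave 0 calls in each comparison. The median fold change ranged over the alternatives from -0.19 to -0.02 in KO against WT, from 0.05 to 0.25 in KO_SN011 against KO, and from -0.03 to 0.14 in KO_SN011 against WT. Rpl29 ranged from -4.77 to -4.53 in KO against WT and from -0.32 to 0.10 in KO_SN011 against KO. Correlations of deviations ran from -0.294 to 0.242 between libraries of the same replicate number and from -0.368 to 0.38 between those of different numbers. Between KO and KO_SN011 the same-numbered pairs (0.198, 0.242 and 0.098) lay above all others (at most 0.091). Whether the numbers pair the libraries was therefore not settled. The replicate block gave 0 calls in each comparison, with medians of -0.09, 0.15 and 0.04. With 46 to 95 reads a library, the 95% interval of the Rpl29 difference between the Trex1-/- groups ran from -0.62 to 0.32 on the log2 scale.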
